A study of Mus musculus with 4 samples.

Results

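Pomc and the receptors through which hypothalamic hormones act on corticotropes were followed through single-nucleus RNA sequencing of mouse pituitary glands. The 4 genes, Pomc, Crhr1, Avpr1b and Crhr2, were taken by symbol from the 32285 genes of the count matrices, and each symbol matched 1 row. Per the labels, the 4 libraries hold nuclei of UM-HET3 wild-type mice, a genetically mixed stock, and are labelled 22-month females, 22-month males, 5-month females and 5-month males. Each library pooled 3 snap-frozen glands, so a pool and not a mouse is the unit, and no labelled group has a second library. All glands were wild type and no treatment is given. Sets of 4 values belong to the libraries as listed in the sentence on their labels.

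Corticotropes of the anterior lobe and melanotropes of the intermediate lobe both make pro-opiomelanocortin, the product of Pomc. Corticotropes cut it mainly to adrenocorticotropic hormone, which drives the adrenal cortex, and melanotropes cut it further to melanocyte-stimulating hormones and endorphin. Corticotropin-releasing hormone acts on Crhr1, which signals through cyclic AMP, and vasopressin acts on Avpr1b, which signals through phospholipase C. Crhr2 is the related receptor of the urocortins. Glucocorticoids from the adrenal gland hold both Pomc transcription and hormone release in corticotropes in check.

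The libraries held 33328821 to 65773807 counts of unique transcripts (UMIs) in 7765 to 13595 barcodes, of which 6597 to 10355 nuclei per library remained after filtering, 31343 in all. Median depth was 3460 to 4745 UMIs per nucleus. Pairs of libraries shared 14 to 43 barcodes, at most 0.554% of a library. Sex-chromosome transcripts went against the labels of 2 libraries. Xist, the RNA of the inactive X chromosome, had a UMI in 85.8% and 97.3% of the nuclei of the libraries labelled 22-month females and 22-month males, against 0.212% and 0.112% in those labelled 5-month females and 5-month males. At least 1 of 4 Y-linked transcripts was seen in 0.304% and 0.203% of nuclei in the 22-month libraries, against 84.3% and 85.6% in the 5-month libraries. Labelled age and the presence of Xist therefore cannot be told apart in any comparison below. If the labels of the 2 mismatching libraries were exchanged, the contrast of labelled sex would be one of age, so each library is named by its label throughout.

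Nuclei were grouped without Pomc or the receptors. Clusters were built with the 4 genes, the other pituitary hormone genes and the sex-check genes left out, and were named from markers among which none of the 4 genes stood. A single cluster of 747 nuclei was named corticotrope-like from Tbx19, Neurod1, Pcsk1, Tnnt1 and Lifr, and all 5 markers were detected in it in every library. Clusters of 1744 and 295 nuclei were named melanotrope-like, led by markers such as Pax7, Pcsk2 and Drd2. The smaller of these held high immediate-early transcripts, and the males of 5 months, by label, gave 284 of its 295 nuclei. Numbers of corticotrope-like nuclei were 74, 262, 148 and 263, which were 1.02%, 2.53%, 2.24% and 3.68% of the nuclei kept. Melanotrope-like nuclei numbered 333, 962, 372 and 372. Melanotrope markers other than Tbx19 were lower in corticotrope-like than in melanotrope-like nuclei in every library. Pax7 had 0, 2.62, 1.62 and 1.09 UMIs per 1000000 UMIs of the class (CPM) in corticotrope-like nuclei. In melanotrope-like nuclei it had 347, 247, 333 and 344 CPM. Tbx19, which stands in both marker lists, had 298, 265, 265 and 239 CPM in corticotrope-like nuclei, against 116, 128, 177 and 172 CPM in melanotrope-like nuclei. The 5 lactotrope markers, Prl among them, were detected in corticotrope-like nuclei of every library, and they summed to 20168, 50921, 3691 and 8015 CPM. In melanotrope-like nuclei the same 5 markers, among them Drd2, which also named this class, summed to 20039, 40889, 3867 and 7100 CPM. Somatotrope markers, Gh among them, summed to 12055, 30080, 21206 and 44573 CPM in corticotrope-like nuclei. They summed to 12950, 17559, 18242 and 34262 CPM in melanotrope-like nuclei. Whether these transcripts came from other cells was not tested, nor was their part in the results below.

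Pomc (ENSMUSG00000020660) lies on the plus strand of mm10 chromosome 12, from 3954951 to 3960642, and its annotated transcripts have up to 4 exons. Crhr1 (ENSMUSG00000018634) spans 104132855 to 104175523 on the plus strand of chromosome 11, with 13 exons. Avpr1b (ENSMUSG00000026432) lies on the plus strand of chromosome 1, from 131599239 to 131612000, with 2 exons. Crhr2 (ENSMUSG00000003476) lies on the minus strand of chromosome 6, from 55090049 to 55133016. No other gene of the GENCODE M21 annotation overlapped any of the 4. The promoters of Pomc and Crhr1 are shown because these genes separate the Pomc-producing classes from each other in opposite directions. Both windows come from RefSeq (GRCm38.p6), run 5' to 3' from 250 bases before to 50 bases after the start that RefSeq gives, and lie on the plus strand at chr12:3954695-3954994 and chr11:104132531-104132830. The RefSeq starts differ from those of GENCODE above, and the Crhr1 window ends before the GENCODE start. Capitals mark matches, searched on both strands, to motifs of 5 kinds. A box that many promoters hold near the start was searched as TATAAA, and the E-box, bound by factors such as the product of Neurod1, as CANNTG. The core of the T-box element, the family of sites to which Tbx19 binds, was searched as TCACACC. The cyclic AMP response element was searched as TGACGTCA, and its core, which overlaps it, as TGACG.
Pomc: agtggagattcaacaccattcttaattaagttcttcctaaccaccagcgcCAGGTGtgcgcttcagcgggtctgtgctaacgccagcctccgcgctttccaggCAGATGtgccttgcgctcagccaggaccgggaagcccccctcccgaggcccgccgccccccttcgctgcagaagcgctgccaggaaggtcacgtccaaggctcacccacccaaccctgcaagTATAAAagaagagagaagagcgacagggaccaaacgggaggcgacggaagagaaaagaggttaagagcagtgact
Crhr1: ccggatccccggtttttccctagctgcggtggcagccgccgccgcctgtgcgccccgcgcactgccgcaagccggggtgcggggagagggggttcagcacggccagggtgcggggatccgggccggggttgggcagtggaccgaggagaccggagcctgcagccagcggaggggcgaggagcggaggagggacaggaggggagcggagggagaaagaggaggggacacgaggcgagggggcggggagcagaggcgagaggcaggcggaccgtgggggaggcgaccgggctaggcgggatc
The Pomc window held TATAAA at -25 to -20 from the start and E-boxes at -200 to -195 and -147 to -142. The Crhr1 window held no match to any of the 5 motifs and was richer in G and C, at 75% against 59% for Pomc and a median of 52.7% over all 32851 promoters of the table. TATAAA occurred in 13.6% of all promoters, CANNTG in 72.3%, TCACACC in 3.98%, TGACGTCA in 1.79% and TGACG in 20.8%. The Crhr2 window held TATAAA at -39 to -34 and an E-box at -218 to -213.

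Pomc was highest in melanotrope-like nuclei and next in corticotrope-like nuclei in every library. Corticotrope-like nuclei had 13776, 14478, 41539 and 29678 CPM of Pomc. Melanotrope-like nuclei had 37702, 51226, 62134 and 85340 CPM. Within each library corticotrope-like nuclei were the lower of the pair, at 0.365, 0.283, 0.669 and 0.348 times the melanotrope-like level. The ranges of the classes over the 4 libraries overlapped, because the corticotrope-like level of the library labelled 5-month females exceeded the melanotrope-like level of the library labelled 22-month females. Summed counts were compared with edgeR's quasi-likelihood test, with libraries as a block and p-values adjusted over all 12486 genes tested, of which 22.9% passed at an adjusted p under 0.05. Pomc fell by 1.39 on the log2 scale in corticotrope-like relative to melanotrope-like nuclei (SE 0.15, adjusted p = 4.72e-06, lower in 4 of 4 libraries). Without libraries as a block the call was lost (adjusted p = 0.0712), with a log2 fold of -1.28.

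**Figure D1:**
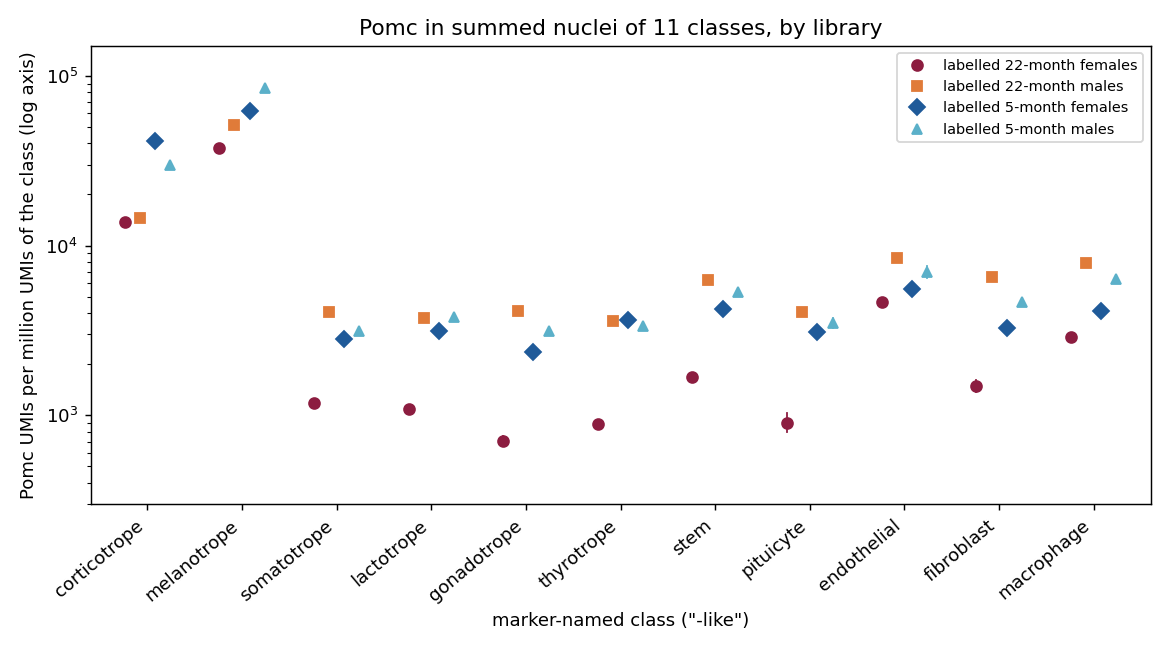
Pomc UMIs per 1000000 UMIs (log axis) in 11 marker-named classes, 1 marker per library, with 95% Poisson intervals that are mostly smaller than the markers. Corticotrope-like and melanotrope-like nuclei stand above the other classes, which lie between 708 and 8473 CPM. Unnamed nuclei are not drawn.

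Every other class also carried Pomc transcripts. Somatotrope-like nuclei had 1186, 4071, 2822 and 3152 CPM, and a Pomc UMI was present in at least 99% of them in each library. This level was taken as the background for the comparisons below. Free RNA in droplets can give such counts in cells that do not transcribe a gene, but its part here was not tested. Corticotrope-like nuclei exceeded somatotrope-like nuclei 11.6-, 3.56-, 14.7- and 9.42-fold. Over endothelial-like nuclei the folds were smaller, at 2.96, 1.71, 7.46 and 4.26. Among the other classes, endothelial-like nuclei had the highest median over libraries, 6266 CPM, and gonadotrope-like nuclei the lowest, 2754 CPM. The range of corticotrope-like nuclei did not overlap that of endothelial-like nuclei, whereas each pair of neighbours below that in the order overlapped. Nuclei of the clusters that stayed unnamed are not among these classes, and had 2024, 5259, 13263 and 3841 CPM. The highest of these clusters, of 304 nuclei, had 12441 CPM over all libraries. Melanotrope-like nuclei held 59.9%, 56.0%, 52.4% and 54.6% of all Pomc UMIs of their library, and corticotrope-like nuclei 5.03%, 3.76%, 11.3% and 11.1%. Lactotrope-like nuclei, the largest or second largest class, held 16.6%, 19.2%, 12.4% and 11.3% of the Pomc UMIs at background levels per nucleus.

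Pomc varied widely among single corticotrope-like nuclei. The median share of a nucleus's UMIs that were Pomc was 1.23%, 1.28%, 3.64% and 2.39% in corticotrope-like nuclei and 3.50%, 4.92%, 5.82% and 7.99% in melanotrope-like nuclei. The middle 50% of corticotrope-like nuclei ran from 0.767% to 2.34%, 0.786% to 2.09%, 2.28% to 5.68% and 1.499% to 3.98%. A background limit was set at the 95th percentile of somatotrope-like nuclei of the same library, 0.332%, 0.963%, 0.685% and 0.742%. The 90th percentile of endothelial-like nuclei lay above this limit in every library, at 0.511%, 1.42%, 1.04% and 1.31%. At or below the somatotrope-based limit lay 13 of 74, 97 of 262, 6 of 148 and 24 of 263 corticotrope-like nuclei. Of melanotrope-like nuclei 2 of 333, 2 of 962, 0 of 372 and 0 of 372 did. In the library labelled 22-month males, which had the highest limit, the 97 nuclei without Pomc above it carried Crhr1 at 169 CPM and Tbx19, the Pomc-lineage factor, at 288 CPM, against 178 and 248 CPM in its other 165 corticotrope-like nuclei. In the library labelled 22-month females the 13 such nuclei had 7 Crhr1 UMIs (66.1 CPM), against 70 (196 CPM) in the other 61. In the 5-month libraries, labelled female and male, such nuclei had 3 and 14 Crhr1 UMIs (105 and 162 CPM), against 195 and 231 CPM above the limit. Tbx19 was lower in the nuclei at or below the limit in the other 3 libraries. In those labelled 22-month females, 5-month females and 5-month males it had 198, 105 and 173 CPM, from 21, 3 and 15 UMIs. The nuclei above the limit had 327, 273 and 246 CPM.

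**Figure D2:**
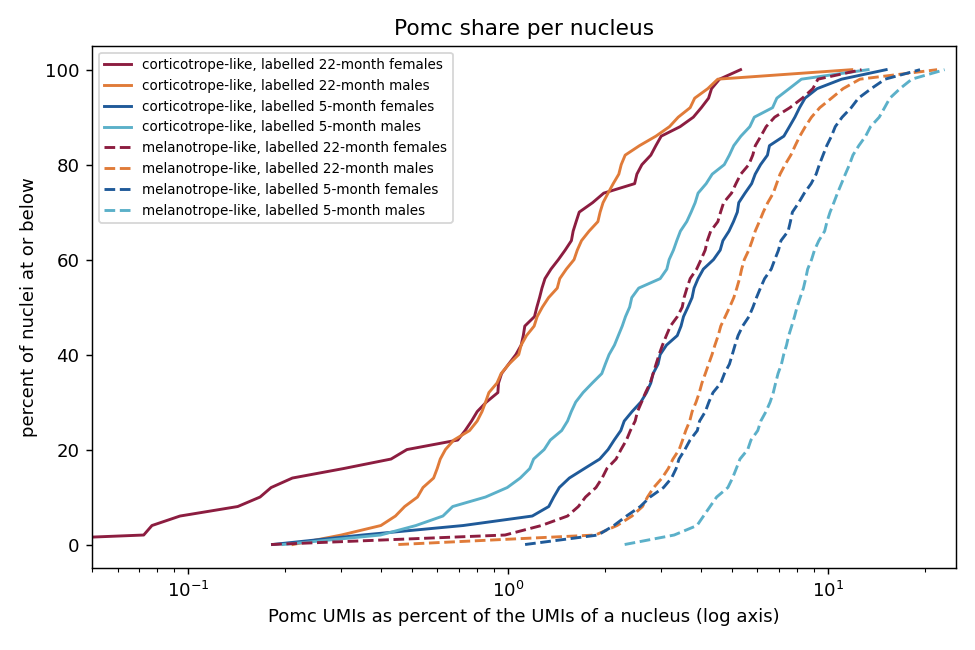
Cumulative share of nuclei (percent) by the share of their UMIs that were Pomc (percent, log axis), solid lines for corticotrope-like and broken lines for melanotrope-like nuclei, 1 colour per library. Within each library the corticotrope-like curve lies to the left of the melanotrope-like curve, and the medians of the 22-month libraries, 1.23% and 1.28%, lie left of those of the 5-month libraries, 3.64% and 2.39%.

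Crhr1, the receptor of corticotropin-releasing hormone, was highest in corticotrope-like nuclei. It had 77, 199, 118 and 206 UMIs there, or 166, 174, 191 and 224 CPM. Melanotrope-like nuclei had 49, 151, 39 and 29 UMIs, or 24.3, 31.4, 20.3 and 18.4 CPM. The groups did not overlap, with means of 189 ± 25.7 CPM in corticotrope-like and 23.6 ± 5.78 CPM in melanotrope-like nuclei (SD, n = 4 libraries). Within a library corticotrope-like nuclei exceeded melanotrope-like nuclei 6.84-, 5.54-, 9.41- and 12.2-fold. In edgeR's test Crhr1 rose by 2.90 on the log2 scale in corticotrope-like relative to melanotrope-like nuclei (SE 0.16, adjusted p = 3.24e-09, higher in 4 of 4 libraries). A Crhr1 UMI was present in 54.1%, 45.8%, 50% and 47.9% of corticotrope-like nuclei and in 10.8%, 12.2%, 8.60% and 6.72% of melanotrope-like nuclei. Somatotrope-like nuclei, of median depths 3700 to 4422 UMIs against 3322 to 5362 in corticotrope-like nuclei, had one in 0.0514% to 0.362%. With each nucleus thinned to 1000 UMIs the shares were 20.3%, 14.6%, 19.6% and 16.7% in corticotrope-like and 2.40%, 2.39%, 1.88% and 0.806% in melanotrope-like nuclei.

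Crhr1 in melanotrope-like nuclei also lay above all classes other than the corticotrope-like one. Macrophage-like nuclei came next by median, at 2.41 CPM, and their range did not overlap that of melanotrope-like nuclei. Somatotrope-like and lactotrope-like nuclei stayed at 0.104 to 0.797 CPM, and pituicyte-like nuclei had 0 UMIs in all 240 nuclei, for which 3 counts of the total allow a share of up to 1.25% of nuclei with a UMI. Corticotrope-like nuclei held 51.3%, 50.5%, 69.4% and 82.7% of all Crhr1 UMIs of their library, and melanotrope-like nuclei 32.7%, 38.3%, 22.9% and 11.6%. The smaller melanotrope-like cluster, rich in immediate-early transcripts, had 20.5 CPM of Crhr1 in the library labelled 5-month males, against 11.02 CPM (4 UMIs) in the larger cluster of that library. Without the smaller cluster the corticotrope-like to melanotrope-like comparison kept its call for Pomc, Crhr1 and Avpr1b.

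Avpr1b, the pituitary vasopressin receptor, was highest in corticotrope-like nuclei too. It had 48, 63, 26 and 30 UMIs there, or 104, 55.1, 42.1 and 32.6 CPM. Melanotrope-like nuclei had 6, 9, 2 and 2 UMIs, or 2.97, 1.87, 1.04 and 1.27 CPM. Corticotrope-like nuclei exceeded them 34.8- and 29.4-fold in the 22-month libraries, and 40.5-fold (interval 10.1 to 352) and 25.8-fold (6.54 to 223) in the 5-month libraries, where melanotrope-like nuclei had 2 UMIs each. Avpr1b rose by 4.91 on the log2 scale in corticotrope-like relative to melanotrope-like nuclei (edgeR, SE 0.26, adjusted p = 1.96e-09, higher in 4 of 4 libraries). Corticotrope-like nuclei held 71.6%, 69.2%, 66.7% and 81.1% of all Avpr1b UMIs. Unlike Crhr1, the ranges of melanotrope-like and thyrotrope-like nuclei overlapped, with medians of 1.57 and 1.38 CPM. A UMI was seen in 33.8%, 18.3%, 15.5% and 8.37% of corticotrope-like nuclei, and in 0% to 0.226% of somatotrope-like nuclei.

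**Figure D3:**
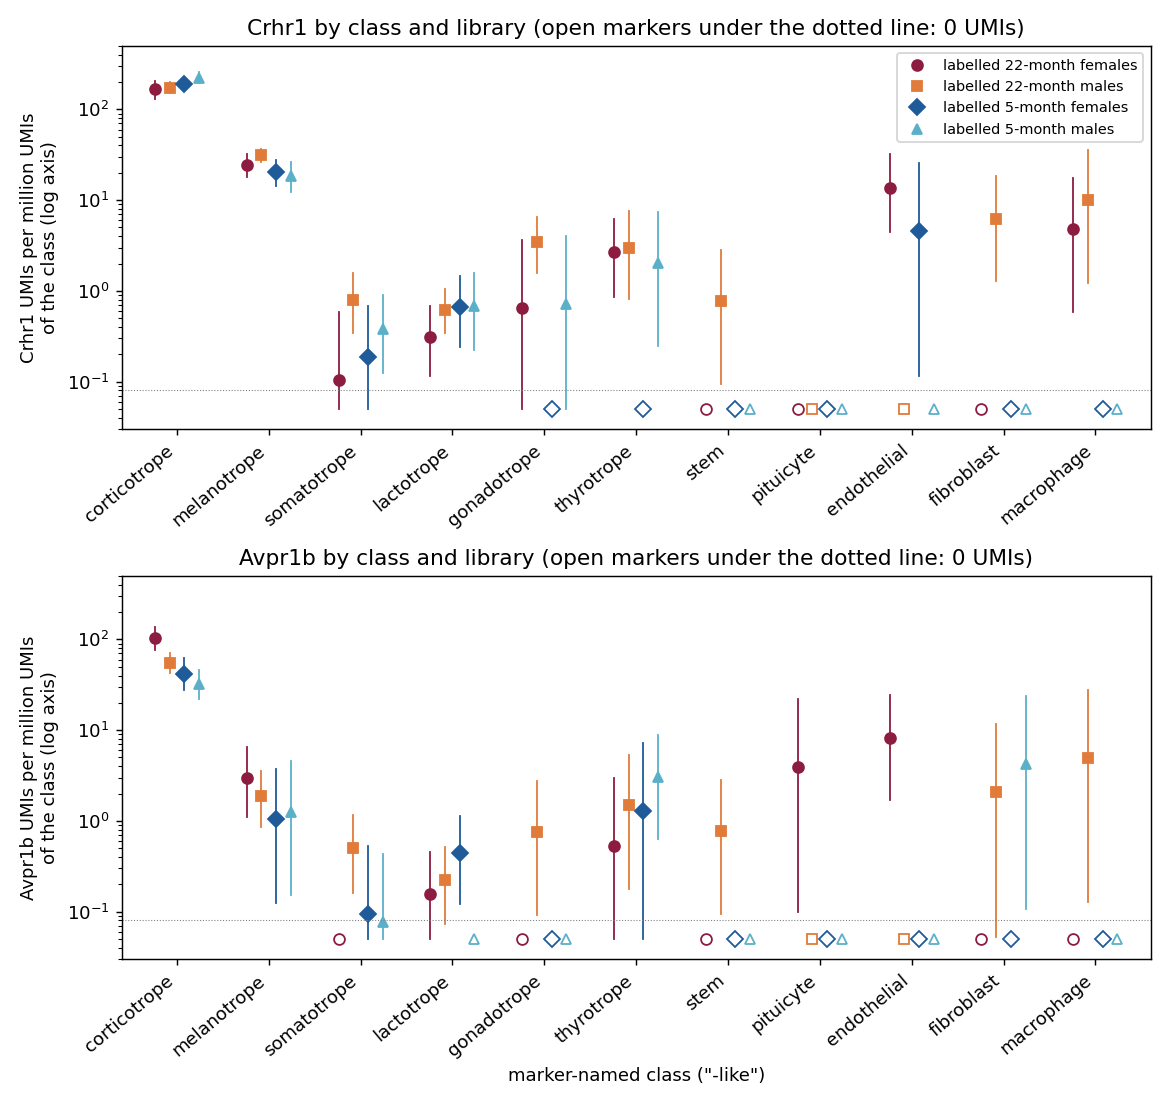
Crhr1 (upper panel) and Avpr1b (lower panel) UMIs per 1000000 UMIs of a class (log axis) in 11 classes, 1 marker per library, with 95% Poisson intervals cut at the foot of the axis, and open markers for 0 UMIs. Corticotrope-like nuclei lead for both genes, at 166 to 224 and 32.6 to 104 CPM, and melanotrope-like nuclei stand apart from the other classes for Crhr1 at 18.4 to 31.4 CPM.

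Transcripts of both receptors were seen together in part of the corticotrope-like nuclei. Both had a UMI in 16 of 74, 29 of 262, 14 of 148 and 11 of 263 corticotrope-like nuclei, or 21.6%, 11.1%, 9.46% and 4.18%. Of the 25, 48, 23 and 22 nuclei with an Avpr1b UMI, those same 16, 29, 14 and 11 also had Crhr1. At least 1 of them was seen in 66.2%, 53.1%, 56.1% and 52.1%. After thinning to 1000 UMIs, 0, 2, 2 and 2 nuclei showed both, so that joint detection depended on depth. In thinned nuclei the median Pomc count was 30, 13, 34 and 27.5 UMIs where Crhr1 was seen, against 11, 13, 35 and 25 where it was not. The first of these pairs rests on 15 Crhr1-positive nuclei of the library labelled 22-month females, and the other libraries showed medians that differed by at most 2.5 UMIs.

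Crhr2 was not detected in either Pomc class. It had 0 UMIs in all 747 corticotrope-like nuclei, for which 3 counts of the total allow up to 0.402% of nuclei with a UMI, and 0 in all 2039 melanotrope-like nuclei, which allows up to 0.147% by the same limit. Over all nuclei kept it had 48 UMIs in 40 nuclei. Gonadotrope-like nuclei had 2, 1, 6 and 2 UMIs, or 1.31, 0.382, 4.33 and 1.43 CPM, and were the sole named class with a UMI in every library. Lactotrope-like nuclei had 20, 4, 0 and 0 UMIs, and somatotrope-like nuclei had 9, 0, 1 and 0. The 20 UMIs of lactotrope-like nuclei in the library labelled 22-month females lay in 16 nuclei, with at most 3 in a nucleus. Ranges of gonadotrope-like and lactotrope-like nuclei overlapped, and no test was made for Crhr2, which passed no filter on low counts in the Pomc classes.

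By labelled age, Pomc fell in corticotrope-like nuclei and Avpr1b rose, while Crhr1 did not pass. Pomc was at 13776 and 14478 CPM in the 22-month libraries, against 41539 and 29678 CPM in the 5-month libraries, and these did not overlap. The 22-month level was 0.332 times the 5-month level in the libraries labelled female and 0.488 times in those labelled male. Pomc in classes at background level moved with the first pair but not the second: it was 0.420 and 1.29 times the 5-month level in somatotrope-like nuclei, 0.349 and 0.993 times in lactotrope-like nuclei and 0.300 and 1.32 times in gonadotrope-like nuclei. The part of free RNA in the difference was not tested. With labelled sex as a term, Pomc fell by 1.28 on the log2 scale (edgeR, SE 0.16, adjusted p = 4.89e-09, lower in both pairs), where 2.23% of 9570 genes tested passed, 1.56% higher and 0.669% lower. This fit has 1 residual degree of freedom and borrows the spread from other genes. The call was lost without labelled sex as a term (adjusted p = 0.115). Fits that left out a library also left out this term, since 3 libraries allow no more, and assume that the lone library of an age varies like the others. Among them the call was lost without the library labelled 5-month females (log2 fold -0.996, adjusted p = 0.28) and without that labelled 5-month males (log2 fold -1.54, adjusted p = 0.283), and loss of the library and of the term cannot be told apart. A lower level cannot be told apart from a smaller share of Pomc-making cells within the cluster. At or below the background limit lay 17.6% and 37.0% of the nuclei in the 22-month libraries, against 4.05% and 9.13% in the 5-month libraries. The limit itself differed by library, at 0.332% and 0.963% against 0.685% and 0.742%, so these shares do not compare the ages at a common limit.

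Avpr1b went the other way from Pomc, at 104 and 55.1 CPM in the 22-month libraries against 42.1 and 32.6 CPM in the 5-month libraries. The 22-month level was 2.46 times (interval from counting 1.5 to 4.13) the 5-month level in the libraries labelled female and 1.69 times (1.08 to 2.70) in those labelled male. Avpr1b rose by 1.05 on the log2 scale (edgeR, SE 0.30, adjusted p = 0.0443, higher in both pairs). This call stood close to the threshold: DESeq2 gave an adjusted p of 1.0, the size factors of DESeq2 in edgeR 0.0633, no filter on low counts 0.0501, and totals without Gh, Prl and Pomc 0.0577. It was lost with doublets kept (log2 fold 0.87, adjusted p = 0.111), without labelled sex as a term (adjusted p = 0.389) and, in fits that also lack this term, without the library labelled 22-month females (log2 fold 0.62, adjusted p = 0.676), 5-month females (adjusted p = 0.095) or 5-month males (adjusted p = 0.925). Without that labelled 22-month males, again with no term for labelled sex and with 1 library at 22 months, it passed with a log2 fold of 1.55 and an adjusted p of 0.000264. The 22-month females' library contributed 74 corticotrope-like nuclei of the greatest median depth, 5362 UMIs. After thinning, an Avpr1b UMI was seen in 6.76%, 4.21%, 4.73% and 3.04% of nuclei, or 5, 11, 7 and 8 nuclei. At this equal depth the labelled ages overlapped.

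Crhr1 levels ran from 166 to 224 CPM across libraries in corticotrope-like nuclei. The 166 and 174 CPM of the 22-month libraries and the 191 and 224 CPM of the 5-month libraries differed by a log2 fold of -0.26 (edgeR, SE 0.22, adjusted p = 0.702). By counting alone the 22-month level was 0.870 times (0.644 to 1.17) the 5-month level in the libraries labelled female and 0.777 times (0.636 to 0.949) in those labelled male. The interval of the first pair includes no difference, and that of the second lies below it. These intervals cover counting error only, and a p that misses the threshold does not show equal levels.

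**Figure D4:**
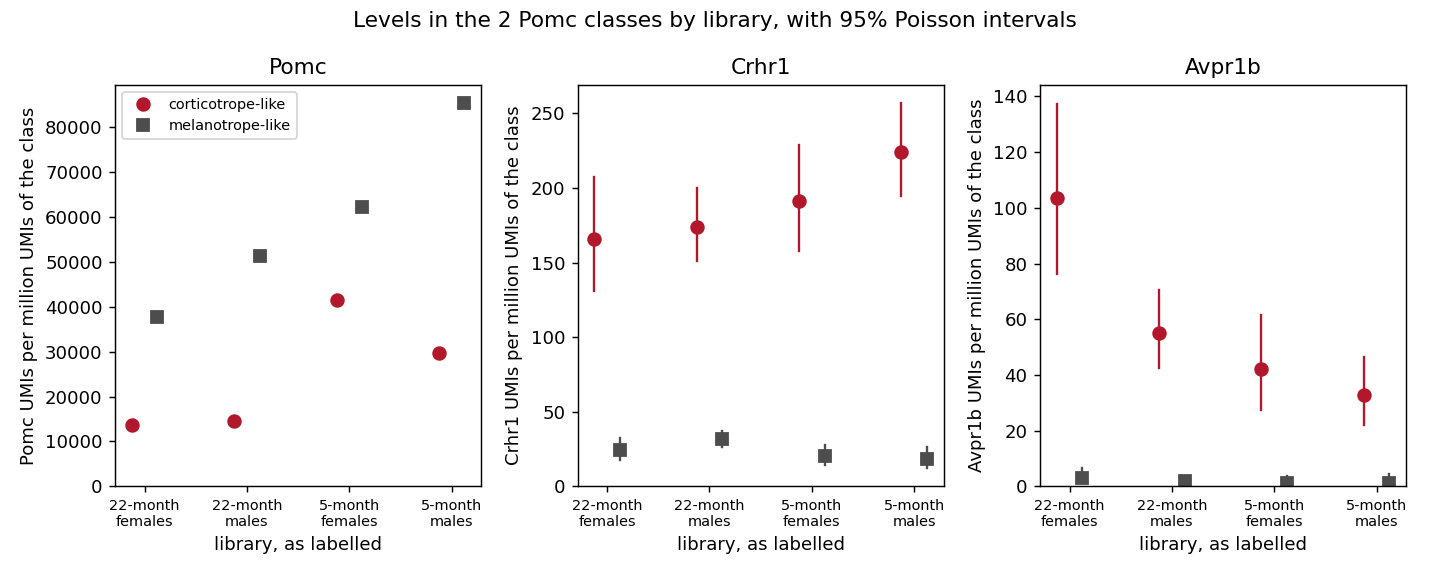
Pomc, Crhr1 and Avpr1b UMIs per 1000000 UMIs of the class in corticotrope-like (circles) and melanotrope-like nuclei (squares) of the 4 libraries as labelled, with 95% Poisson intervals that cover counting error only. In corticotrope-like nuclei Pomc is lower in the 22-month libraries (13776 and 14478 CPM) than in the 5-month libraries (41539 and 29678 CPM), and Avpr1b is higher (104 and 55.1 against 42.1 and 32.6 CPM).

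In melanotrope-like nuclei Pomc had 37702 and 51226 CPM in the 22-month libraries, against 62134 and 85340 CPM in the 5-month libraries. The 22-month level was 0.607 times the 5-month level in the libraries labelled female and 0.600 times in those labelled male, and the groups did not overlap. The log2 fold of -0.70 did not pass (edgeR, SE 0.19, adjusted p = 0.0576), where 2.11% of 12439 genes tested passed, 1.25% higher and 0.860% lower. It passed with the size factors of DESeq2 (adjusted p = 0.00604), with no filter on low counts (8.78e-09) and without the cluster rich in immediate-early transcripts (0.00767). Crhr1 had 24.3 and 31.4 CPM in the 22-month libraries, against 20.3 and 18.4 CPM in the 5-month libraries, a log2 fold of 0.56 that did not pass (SE 0.26, adjusted p = 0.338). Avpr1b was too low in melanotrope-like nuclei to be tested. Immediate-early transcripts moved with these libraries: 9 such genes summed to 266, 222, 392 and 4192 CPM in melanotrope-like nuclei and to 166, 255, 414 and 2665 CPM in corticotrope-like nuclei. Their part in the differences was not tested.

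The labelled-age differences of the classes were compared with each other in an interaction fit chosen after the values were seen, in which 0.0320% of genes passed. Pomc differed by a further -0.57 on the log2 scale in corticotrope-like nuclei (SE 0.27, unadjusted p = 0.0518, adjusted p = 0.96). A difference between the classes was therefore not shown for Pomc. Avpr1b had an unadjusted p of 0.961 in this fit. Its melanotrope-like sums held 6, 9, 2 and 2 UMIs, too few for the fit to decide whether the classes differ. For labelled sex 0.0160% of genes passed, and Pomc differed by 0.63 (SE 0.22, unadjusted p = 0.0128, adjusted p = 0.999).

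By labelled sex none of the genes passed in either class. In corticotrope-like nuclei 1.13% of genes passed in edgeR's test (0.930% higher, 0.199% lower). For labelled female over labelled male, Pomc had a log2 fold of 0.25 (adjusted p = 0.801), Crhr1 -0.11 (0.976) and Avpr1b 0.72 (SE 0.30, adjusted p = 0.448). Pomc in the library labelled female was 0.952 times that in the library labelled male at 22 months, and 1.40 times at 5 months. Avpr1b was 1.88 times (1.26 to 2.78) as high in the library labelled 22-month females as in that labelled 22-month males, and 1.29 times (0.733 to 2.26) at 5 months. Without the library labelled 5-month females, and with no term for labelled age, Avpr1b passed, with a log2 fold of 1.28 and an adjusted p of 0.00994. In melanotrope-like nuclei 1.45% of genes passed. Pomc there was 0.736 times as high in the library labelled female as in that labelled male at 22 months. At 5 months it was 0.728 times as high, and the log2 fold of Pomc was -0.41 (edgeR, adjusted p = 0.362). With no filter on low counts this passed (log2 fold -0.43, adjusted p = 0.00259). Of the 180 genes that passed in melanotrope-like nuclei, 120 were higher and 60 lower in the libraries labelled female. With totals without Gh, Prl and Pomc 84 were higher and 22 lower.

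Genes that act with the receptors and with Pomc were counted in lists. Over all genes tested 12.1% were higher and 10.9% lower in corticotrope-like than in melanotrope-like nuclei, with a median log2 fold of -0.04, and each list is given beside these shares. Of 11 Pomc processing and granule genes tested, 1 was higher and 5 lower, with a median log2 fold of -0.32. Higher was Pcsk1, the convertase that yields adrenocorticotropic hormone, at 71.2, 51.6, 77.7 and 122 CPM against 34.7, 44.3, 27.0 and 48.1 CPM in melanotrope-like nuclei. Lower were Pcsk2, the convertase that cuts further (log2 fold -6.34), its chaperone Scg5 (-0.44), Pcsk1n (-0.62) and the granins Chga (-1.46) and Scg2 (-0.36). Pcsk1 and Pcsk2 were among the markers that named the classes, so their difference is a description. The same holds for Tbx19, Neurod1, Pax7, Lifr and Drd2 below.

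Of 16 listed transcription factors of the Pomc lineage, 14 were tested, 5 were higher and 3 lower, with a median log2 fold of 0.08. Over all genes tested 12.1% were higher and 10.9% lower. Among the higher were Neurod1 (5.16), Nr4a3 (2.29), Tbx19 (0.83) and Stat3 (0.69). Lower were Pax7, the melanotrope selector factor (-7.56), Insm1 (-0.94) and Nr4a2 (-0.57). Stat3 transmits leukemia inhibitory factor signals, and the receptor chains Lifr (0.74) and Il6st (0.71) were higher too. Among 8 tested of 17 other receptors, 3 were higher, with Il1r1 the interleukin 1 receptor at 1.92, and 1 was lower, the dopamine receptor Drd2 at -5.91. Their median was 0.18.

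Glucocorticoid feedback genes were mostly higher in corticotrope-like nuclei. Of 12 listed genes 9 were tested, 6 were higher and 2 lower, with a median log2 fold of 1.17, where 12.1% and 10.9% of all genes were higher and lower. Nr3c1, the glucocorticoid receptor, had 539, 453, 430 and 421 CPM in corticotrope-like nuclei, against 22.8, 18.7, 10.9 and 10.1 CPM in melanotrope-like nuclei. Its log2 fold was 4.82 (edgeR, SE 0.15, adjusted p = 8.95e-12). Nr3c2, the mineralocorticoid receptor, was higher by 1.17, and the glucocorticoid-induced genes Fkbp5, Zbtb16 and Tsc22d3 by 2.86, 3.02 and 1.27. Fkbp5, a co-chaperone that lowers the affinity of the glucocorticoid receptor, had 388, 473, 377 and 321 CPM against 50.03, 51.2, 56.2 and 53.8 CPM. The larger of the lower folds was that of the phosphatase Dusp1 (-1.17), which is also an immediate-early gene and had 180 CPM in melanotrope-like nuclei of the library labelled 5-month males.

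The signalling arms of the receptors were counted separately, and no test compared them. Of 13 listed genes of the phospholipase C arm, on which Avpr1b acts, 9 were tested, 6 were higher in corticotrope-like nuclei and 0 lower, with a median log2 fold of 0.87. These were the inositol trisphosphate receptors Itpr1 (1.74) and Itpr2 (1.29), the protein kinases C Prkce (1.28) and Prkca (0.87), Plcb1 (0.89) and the G protein subunit Gnaq (0.35). Of 20 listed genes of the cyclic AMP arm, on which Crhr1 acts, 18 were tested, 3 were higher and 3 lower, with a median of -0.01, where 22.9% of all genes passed in either direction. The adenylyl cyclase Adcy2 had 831, 559, 584 and 477 CPM in corticotrope-like nuclei, against 12.9, 12.1, 1.04 and 3.80 CPM in melanotrope-like nuclei, a log2 fold of 6.19 (edgeR, SE 0.26, adjusted p = 1.37e-10). Prkar2b (1.09) and Pde4d (0.48) were also higher, while the stimulatory G protein Gnas (-0.47), Prkar1b (-0.64) and the phosphodiesterase Pde4b (-1.53) were lower.

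**Figure D5:**
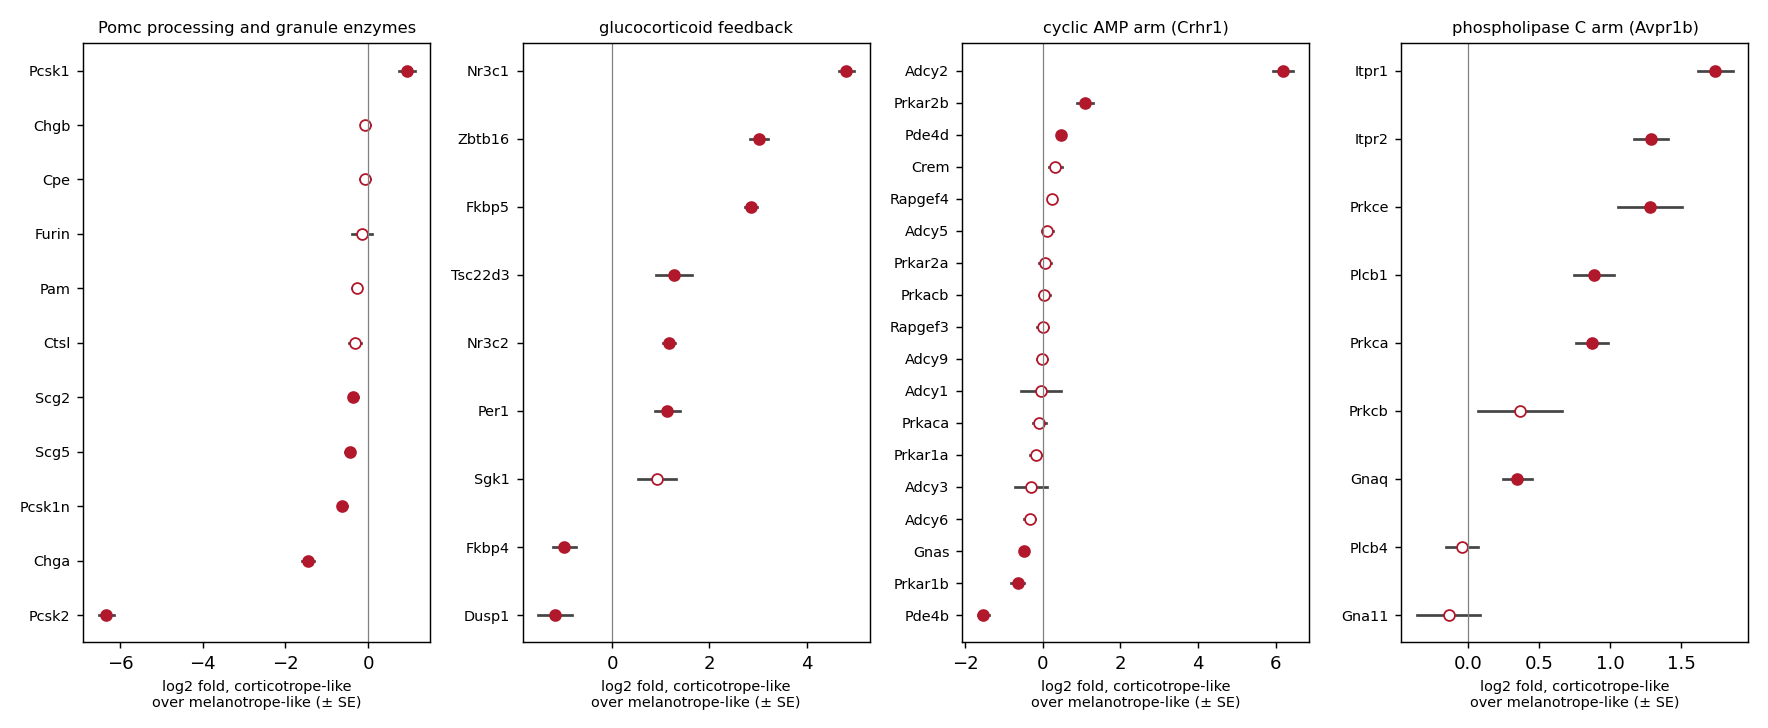
Log2 fold (± SE) of corticotrope-like over melanotrope-like nuclei for the tested genes of 4 lists, each panel on its own axis, with filled circles for adjusted p under 0.05 and open circles for the rest. Pcsk2 lies at -6.34, Nr3c1 at 4.82 and Adcy2 at 6.19, and all 6 phospholipase C genes that passed lie above 0.

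By labelled age 2.23% of all genes tested passed in corticotrope-like nuclei. Of the lists these were 1 of 11 tested processing genes, 1 of 9 transcription factors, 1 of 8 glucocorticoid genes, 1 of 9 phospholipase C genes, 0 of 16 cyclic AMP genes and 0 of 7 other receptors. The granin Chgb rose by 0.85 on the log2 scale, Zbtb16 by 1.19 and Prkcb by 1.40, and Nr4a2 fell by 1.98. Prkcb had 77.7 CPM in the library labelled 22-month females, against 25.4, 16.2 and 17.4 CPM in the others. In melanotrope-like nuclei Pcsk2 rose by 0.87, Prkce by 1.57 and Adcy2 by 2.41, and the immediate-early genes Nr4a1, Nr4a2 and Dusp1 fell by 2.03, 1.19 and 2.22. These 3 genes stood at 53.8, 243 and 180 CPM in the library labelled 5-month males, above each other library. By labelled sex Pde4b was higher in the libraries labelled female in both classes, by 1.16 in corticotrope-like and 1.37 in melanotrope-like nuclei. In melanotrope-like nuclei Itpr2 was higher by 0.81 and Prkce by 0.97 in the libraries labelled female.

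Of the 7 listed ligands and binding proteins, Crhbp, which binds and sequesters corticotropin-releasing hormone, was the one tested. It rose with labelled age in melanotrope-like nuclei (18 and 86 UMIs in the 22-month libraries, against 1 and 0 in the 5-month libraries, adjusted p = 0.00045). Corticotrope-like nuclei had 3 and 30 UMIs in the 22-month libraries, against 0 and 0. The level was far higher in lactotrope-like nuclei, at 135 and 118 CPM in the 22-month libraries against 0.111 and 0 CPM in the 5-month libraries. At 8.92 and 17.9 CPM, Crhbp in melanotrope-like nuclei of the 22-month libraries did not exceed the 11.7 and 20.9 CPM of somatotrope-like nuclei. The ligand genes had few UMIs: Crh had 1 UMI in each Pomc class, and Avp 4 in corticotrope-like and 5 in melanotrope-like nuclei.

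The genes most like each member were ranked by Pearson's r of log2(CPM + 1) over the 44 sums of 11 classes by 4 libraries, among 18960 genes with at least 50 UMIs. The sums share libraries and depth, so r is a description. Most like Pomc were Tmem158 (0.85), Gpa33 (0.82), Tbx19 (0.81), Nsa2 (0.80) and Dusp27 (0.80). Most like Crhr1 were Gm10113 (0.89), Alpk2 (0.88), Gm12082 (0.88), Gm41757 (0.88) and Tbx19 (0.87). Most like Avpr1b were Gm29825 (0.88), Gm15680 (0.86), 4921528I07Rik (0.85), Crhr1 (0.85) and Cdh8 (0.83). By position Gm41757 lies within Alpk2 and Gm15680 overlaps Cdh8, so these are not separate loci. Tbx19 was among the markers that named both Pomc classes. Tbx19 averaged 267 CPM in corticotrope-like and 148 CPM in melanotrope-like nuclei, against at most 9.35 CPM in another class. Cdh8, a cadherin, averaged 646 CPM in corticotrope-like and 3.30 CPM in melanotrope-like nuclei, against at most 11.004 CPM elsewhere. Crhr2 had too few UMIs for such a ranking.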

How the data were processed

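The authors' deposited values are raw counts of UMIs per gene and barcode, made by Cell Ranger 7.0.1 per the file headers from 10x Genomics 3' libraries on mm10 per the submitters' processing notes. The counting of intronic reads was not stated in labels or headers. Per the labels, each library pooled 3 glands and targeted 10000 nuclei. The barcodes had been selected before deposit, and each held at least 500 UMIs.

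Barcodes with fewer than 500 genes or over 5% mitochondrial counts were removed, then Scrublet doublets above 0.135, the median of the automatic thresholds of the libraries, which called 10.5% to 14.2% of barcodes. Nuclei were clustered in scanpy 1.11.5 (3000 variable genes, 30 components, 15 neighbours, Leiden resolution 1.0) into 27 clusters. Each was named by the class with the highest mean marker z score, at least 0.35, ahead of the next class by 0.2 and with 3 markers detected, settings made after the clusters were seen. Of these, 4 clusters (851 nuclei) stayed unnamed. Counts were summed by library for the 11 classes that had 30 or more nuclei in each.

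Sums were tested with edgeR 4.0.16 (quasi-likelihood, TMM, its own low-count filter, Benjamini-Hochberg adjustment over all genes tested, threshold 0.05). SEs are the fold over the square root of F. DESeq2 1.42.0, other scaling, doublets kept and each library left out (for labelled age and sex without the other term) were alternatives. P-values of the class comparison measure how far the class difference varied between libraries. Those of labelled age or sex have 1 residual degree of freedom, from how far the difference varied between the 2 pairs of libraries. With 2 libraries a side they rest mostly on spread shared across genes. No labelled group has a second pool, so spread between pools of a group was not measured. The fits were tested on simulated data with known changes, in which all genes had the same spread. Of 100 genes changed 2-fold the class comparison recovered 87. In corticotrope-like nuclei the fits of labelled age and sex recovered 44 and 47, and in melanotrope-like nuclei 62 and 64. Changes of 2-fold could therefore be missed. Shares have exact binomial (Clopper-Pearson) 95% intervals and counts Poisson ones, for counting error only; for a count of 0 the limit given is 3 counts of the total.

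The members and gene lists were chosen with earlier results of these data known. Named were the 4 members, listed genes that passed (at most 6 per list by fold in the class comparison) and the 5 genes most like each member. Positions come from GENCODE M21 and promoters from RefSeq. A listed gene that passed is not reported here.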

Additional observations from a re-analysis of the deposited data

Results flagged for a closer look

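Crhr1 went in opposite directions with labelled age in the Pomc classes. It was lower in corticotrope-like nuclei of the 22-month libraries (166 and 174 CPM, against 191 and 224 CPM in the 5-month libraries) and higher in melanotrope-like nuclei (24.3 and 31.4 CPM, against 20.3 and 18.4 CPM), in both pairs of libraries. The difference of the log2 folds, corticotrope-like minus melanotrope-like, was -0.81 (edgeR interaction term, SE 0.28, unadjusted p = 0.0103, adjusted p = 0.818 over 12486 genes), so it did not pass. The melanotrope-like values of the 5-month libraries rest on 39 and 29 UMIs.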

How the results depend on the processing

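Leiden resolution 2.0 gave the same sums for the Pomc classes. In the corticotrope-like against melanotrope-like comparison Crhr1 and Avpr1b passed under every alternative run, and leaving out a library moved their log2 folds within 2.73 to 3.15 and 4.89 to 4.96, and that of Pomc within -1.60 to -1.24; without the library block Pomc did not pass (-1.28). In place of the 2864 genes called in all there, DESeq2 called 1778, the fit with no library block 1812, and fits without a library 1969 to 2705. For labelled age in corticotrope-like nuclei Pomc lost its call without labelled sex as a term (-1.30) and ran from -1.54 to -0.996 without a library, passing in 2 of 4. Avpr1b lost its call in DESeq2 (1.06), with the size factors of DESeq2 (1.05), with no filter (1.05), with totals without Gh, Prl and Pomc (1.05), without labelled sex as a term (1.06) and with doublets kept (0.87), and ran from 0.62 to 1.55 without a library, passing in 1 of 4. Crhr1 ran from -0.32 to -0.15. In place of 213 genes called in all, DESeq2 called 21, the fit without labelled sex 26, and fits without a library 6 to 415.

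By labelled sex in corticotrope-like nuclei, leaving out a library moved Pomc from -0.61 to 0.93, Crhr1 from -0.27 to 0.045 and Avpr1b from -0.070 to 1.28, so their direction depends on single libraries. In place of 108 genes called in all, DESeq2 called 12, the fit without labelled age 0 (764 genes had an unadjusted p under 0.05 in the fit with it), and fits without a library 25 to 229. In melanotrope-like nuclei Pomc by labelled age passed with the size factors of DESeq2 (-0.70), no filter (-0.68) and without the immediate-early cluster (-0.68, chosen after seeing the data), and ran from -0.91 to -0.48 without a library, passing in none; Crhr1 ran from 0.38 to 0.70. In place of 262 genes in all, DESeq2 called 40, its size factors 475, no filter 455, totals without hormones 173, the fit without labelled sex 11, and fits without a library 28 to 87. By labelled sex Pomc passed with no filter (-0.43) and ran from -0.80 to -0.02, and Crhr1 from -0.47 to 0.33. In place of 180 genes in all, DESeq2 called 23, its size factors 378, no filter 338, totals without hormones 106, doublets kept 78, the fit without labelled age 0, and fits without a library 0 to 138. Which genes the fits shared was not counted. Fits of labelled age or sex without a library also lack the other term. The causes were not tested.

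With doublets kept the median Crhr1 level in corticotrope-like nuclei was 154 CPM in place of 183. Thinned to 500 UMIs in place of 1000, median shares with Crhr1 were 9.80% in corticotrope-like and 0.996% in melanotrope-like nuclei, with Avpr1b 2.48% in corticotrope-like nuclei, and with Crhr1 alone 8.78%. Depth limits Avpr1b and Crhr2 most, at 234 and 48 UMIs in all. No paired analysis was possible because each labelled group holds 1 library, which concerns labelled age and sex; in the class comparison both classes come from each library, which is its block.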
